A study of Mus musculus with 4 samples.

Results

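The Rab GTPases are the largest branch of the Ras superfamily and act as switches on membranes, where each member marks one step of vesicle budding, transport, tethering or fusion. A Rab is active with bound GTP, is switched on by exchange factors, is switched off by GTPase-activating proteins, and works through effectors that bind only the active form. The osteoclast depends on such traffic, because the ruffled border that dissolves bone forms by fusion of lysosome-like vesicles with the plasma membrane, a step in which Rab7 is known to take part. The members were all probe sets whose single platform gene symbol was Rab followed by a number and at most 1 letter, so that Rab-interacting proteins were left out. There were 95 such probe sets for 50 genes, among 22690 probe sets and 12394 genes on the array. Of these, 64 probe sets for 37 genes had a mean signal above the filter of 62 and were tested.

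The 2 NFATc1-deficient cultures came from NFATc1 fl/fl MxCre+ mice, in which polyIC induces Cre from the interferon-responsive Mx promoter and so removes Nfatc1, the transcription factor that drives osteoclast formation after RANKL. The 2 wild-type cultures came from NFATc1 fl/fl MxCre- mice, so both genotypes were C57BL/6 and carried the floxed alleles. Whether the MxCre- mice received polyIC is not given in the sources used here. Precursors negative for CD11b, CD3e and B220 and positive for ckit and cfms were sorted from the marrow of 3 mice (replicate 1) or 4 mice (replicate 2) and grown with MCSF and RANKL for 3 days, which the labels call early osteoclasts. Each sample was 1 Affymetrix array of pooled material, so the spread between 2 arrays of a genotype is the spread between pools, and the number of arrays limits the precision. In such bulk RNA a lower share of a cell type and less RNA per cell cannot be told apart.

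Nfatc1 signal was lower but not lost. The brighter Nfatc1 probe set read 3018.2 and 4097.9 in the deficient cultures, against 5433.6 and 6146.7 in the wild-type cultures (log2 difference -0.71, adjusted p = 0.0104, and 0.0871 without deficient replicate 1 and 0.0613 without the variance trend), and whether the probe sets lie within the deleted part was not analysed here. All 7 osteoclast markers measured fell (Acp5, Calcr, Ctsk, Itgb3, Mmp9, Ocstamp and Oscar), with a median log2 difference of -1.30, and their summed signal was 19085 and 26174.8 in the deficient cultures, against 43638.4 and 49299.4 in the wild-type cultures. All 7 were lower in deficient replicate 1 than in deficient replicate 2, and Ctsk (0.0719) and Mmp9 (0.131) missed the adjusted p threshold without deficient replicate 1. Calcr and Itgb3 passed the filter only through the wild-type arrays, so they had to differ. Of 7 granulocyte markers 3 rose, with a summed signal of 14611.3 and 7092.7 in the deficient cultures, against 4828.6 and 5720.3 in the wild-type cultures. Of 6 tested macrophage markers 2 fell and 1 rose (summed signals 18769.7 and 18763 in the deficient cultures, against 22876.5 and 26825.1 in the wild-type cultures), and of 2 tested lymphoid markers 1 rose, Il7r (summed signals 597.5 and 548.1 in the deficient cultures, against 482.2 and 307.7 in the wild-type cultures). No tested marker passed in the mast cell (1 tested), megakaryocyte and platelet (3), melanocyte (2) or stromal (2) lists, whose sums lay between 192.4 and 728.3 on every array, and Kit, Tyr, Tyrp1 and Cpa3 lay below the filter. The part of these cell markers in the Rab results was not tested.

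The Rab family as a whole leaned lower in the deficient cultures, and 1 member, Rab38, fell far more than any other. With 1 probe set per gene, 9 of 37 tested Rab genes fell and 2 rose (24.3% and 5.41%), where the background over 7798 tested genes was 11.9% lower and 12.9% higher. Those that fell were Rab38, Rab29, Rab40c, Rab5b, Rab31, Rab7, Rab43, Rab1a and Rab18, and those that rose were Rab20 and Rab8b. By probe set, 12 of 64 fell and 3 rose, against a background of 11.4% and 12.8% of 13577 probe sets. The third probe set that rose was the dimmer one of Rab7b. The median log2 difference of the 37 Rab genes was -0.20, beside 0.03 for all tested genes, and all these differences are deficient minus wild-type on the log2(signal + 23.3) scale. The signals of both deficient arrays lay below both wild-type arrays for 32 tested Rab probe sets and above them for 14, where 28.8% and 34.4% of all tested probe sets did so. Without deficient replicate 1, 6 of 64 Rab probe sets fell (9.38%), beside 6.92% of all 13577. Without a filter on low signals 7 of 95 did (7.37%), beside 5.04% of all 22626.

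**Figure D1:**
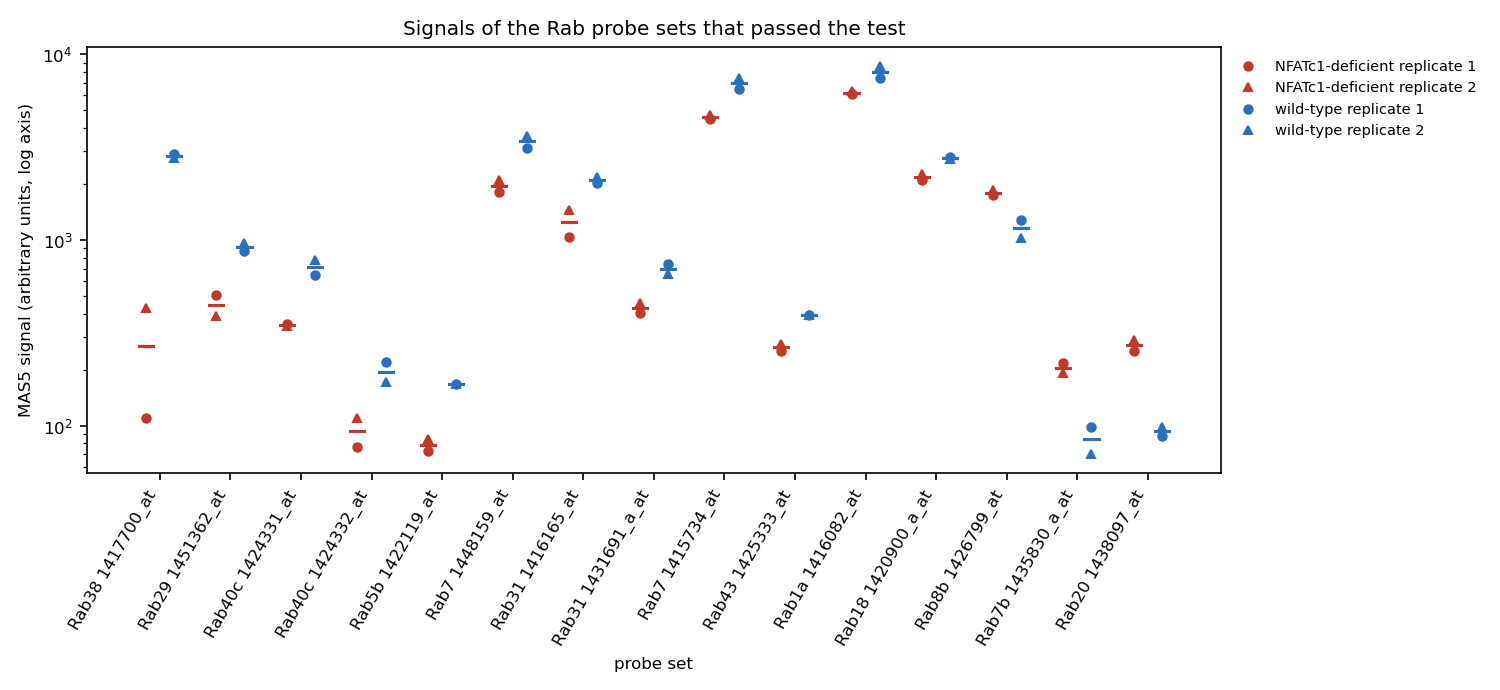
MAS5 signal (log axis) of each of the 15 Rab probe sets that passed, on the NFATc1-deficient (red, left) and wild-type (blue, right) arrays, with circles for replicate 1, triangles for replicate 2 and bars for the mean of 2. The groups do not overlap for any of the 15, and Rab38 shows both the widest gap between genotypes and the widest spread between the deficient arrays, 109.5 and 426.6.

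Promoter windows from RefSeq (GRCm38.p6, 250 bases before to 50 after a gene's start) were found for 42 of the 50 genes, Rab38 not among them. They are shown for 3 of the genes with calls that held in every alternative that tested them (for Rab7, at 1 of its 2 probe sets), Rab29 and Rab7, which fell, and Rab20, which rose, each on its own gene's strand. Capitals mark the letters GGAAA (the core bound by NFAT proteins) and CACGTG (an E-box of the kind bound by MiT family factors), searched on both strands, as was TGANTCA (the AP-1 element). The Rab29 window lies on the plus strand at chr1:131867027-131867326, the Rab7 window on the minus strand at chr6:88045221-88045520 (the first of 2 listed) and the Rab20 window on the minus strand at chr8:11478591-11478890.
Rab29: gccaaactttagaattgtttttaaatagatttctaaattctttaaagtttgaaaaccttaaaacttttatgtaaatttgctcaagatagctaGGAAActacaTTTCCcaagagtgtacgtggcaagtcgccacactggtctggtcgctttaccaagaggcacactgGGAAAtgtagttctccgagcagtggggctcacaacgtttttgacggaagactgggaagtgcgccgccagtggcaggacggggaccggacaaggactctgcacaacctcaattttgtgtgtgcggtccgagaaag
Rab7: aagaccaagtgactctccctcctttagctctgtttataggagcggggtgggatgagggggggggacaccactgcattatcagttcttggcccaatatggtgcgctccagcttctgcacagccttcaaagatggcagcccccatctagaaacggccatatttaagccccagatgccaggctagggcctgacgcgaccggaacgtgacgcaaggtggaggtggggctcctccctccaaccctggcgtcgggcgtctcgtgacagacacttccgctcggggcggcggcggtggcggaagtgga
Rab20: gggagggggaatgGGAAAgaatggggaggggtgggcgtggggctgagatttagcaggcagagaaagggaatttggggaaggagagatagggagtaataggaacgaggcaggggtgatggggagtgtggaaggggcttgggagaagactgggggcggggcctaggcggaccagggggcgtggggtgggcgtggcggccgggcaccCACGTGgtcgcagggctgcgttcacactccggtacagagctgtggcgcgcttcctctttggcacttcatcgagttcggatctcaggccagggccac
The Rab29 window held GGAAA on either strand 3 times, with first bases 158, 148 and 84 bases before the start. The Rab20 window held GGAAA once and CACGTG once, 237 and 46 bases before the start, and none of the 3 motifs is in the Rab7 window. Rab31 and Rab40c, which fell, also kept the call in every alternative at 1 probe set each. Their windows are not printed and held none of the 3 motifs. GGAAA was present in 61.3% of all 32851 windows and in 75.9% of the 54 windows of Rab genes. CACGTG was in 7.15% of all windows and 11.1% of the Rab windows, and TGANTCA in 7.81% and 3.7%. These matches are descriptions of letters and were not set against the changes in signal.

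The lysosome-related organelle route held the largest difference of all, that of Rab38. Rab38, Rab32 and Rab29 form one subfamily of close relatives, of which Rab38 and Rab32 direct cargo to melanosomes and other lysosome-related organelles and Rab29 acts at the Golgi and on stressed lysosomes, where it recruits the kinase LRRK2. Of the 5 genes of this list on the array 3 were tested and 2 fell (66.7%, beside 11.9% of all tested genes). The route lists were written with earlier results of these data known, which limits every route share given here. This share also rests on only 3 genes.

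Rab38, the gene altered in the chocolate coat-colour mouse, had signals of 109.5 and 426.6 in the deficient cultures, against 2901.4 and 2755.6 in the wild-type cultures. Both deficient arrays lay far below both wild-type arrays, yet they differed from each other by 3.9-fold, while the wild-type arrays stood close together. The mean signal was 10.6-fold lower in the deficient cultures, and the log2 difference was -3.54 (SE 0.44, adjusted p = 0.00105 by limma). Taken by replicate number, the difference was -4.46 for replicate 1 and -2.63 for replicate 2. The fall passed under all 12 alternatives, which placed it between -2.66 and -4.42.

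Rab29 had signals of 505.5 and 386.9 in the deficient cultures, against 874.2 and 960 in the wild-type cultures. The groups were well apart, and here deficient replicate 2 was the lower of the pair. The log2 difference was -1.01 (SE 0.15, adjusted p = 0.00257), a 2.06-fold lower mean signal, and the call held under all 12 alternatives. Rab32 read 1673.9 and 1313.7 in the deficient cultures, against 1529.6 and 1396.9 in the wild-type cultures. These groups overlapped (log2 difference 0.02, SE 0.14, adjusted p = 0.937), and the difference between Rab38 and its relative Rab32 was not tested as such. All 5 probe sets of Rab27a and Rab27b, which dock secretory lysosomes and granules at the plasma membrane, lay below the filter, with signals between 1.4 and 64.1 on the 4 arrays.

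In the late endocytic, lysosomal and autophagic route, Rab7 fell and its relative Rab7b did not. Of 6 tested genes in this list, 1 fell and none rose by the brightest probe set (median log2 difference -0.21). The share that fell was 16.7%, beside 11.9% of all tested genes. Rab7, which drives fusion of late endosomes and autophagosomes with lysosomes, read 4473.5 and 4676.5 in the deficient cultures, against 6497.7 and 7407.5 in the wild-type cultures, at the brighter of its 2 probe sets. Its other probe set read 1815.5 and 2089.5 in the deficient cultures, against 3133 and 3632.5 in the wild-type cultures. Neither pair of groups overlapped, and the log2 differences were -0.60 (SE 0.11, adjusted p = 0.00568) and -0.79 (SE 0.12, adjusted p = 0.00273). The brighter one did not pass without deficient replicate 1 (adjusted p = 0.0627), and the other did.

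Rab7b, known for traffic between endosomes and the trans-Golgi network in macrophages and other cells, moved the other way at one of its 2 probe sets. That dimmer probe set read 217.8 and 191.8 in the deficient cultures, against 97.8 and 70.6 in the wild-type cultures, and it rose with a log2 difference of 1.09 (SE 0.23, adjusted p = 0.0109, and 0.0802 without deficient replicate 1). The brighter Rab7b probe set read 239.5 and 256.5 in the deficient cultures, against 179.2 and 178.2 in the wild-type cultures, with no overlap but without passing (0.42, SE 0.18, adjusted p = 0.125). Rab12, which directs recycling cargo such as the transferrin receptor to lysosomes, had 331.2 and 327.1 in the deficient cultures, against 437.1 and 466.2 in the wild-type cultures. It was lower on both deficient arrays and did not pass (-0.43, adjusted p = 0.0629). Rab34, which positions lysosomes, differed by -0.27 (adjusted p = 0.319), Rab9, which returns mannose 6-phosphate receptors from late endosomes, by -0.15 (adjusted p = 0.362), and Rab24, linked to autophagy, by 0.10 (adjusted p = 0.621).

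The early endocytic and recycling route had calls in both directions. Of 12 tested genes 2 fell, Rab31 and Rab5b, 1 rose, Rab20, and 9 did not pass (median log2 difference -0.20). These shares, 16.7% lower and 8.33% higher, stand beside 11.9% and 12.9% of all tested genes. Rab31, which carries cargo between the trans-Golgi network and endosomes, read 1037.2 and 1453.3 in the deficient cultures, against 2027.9 and 2166 in the wild-type cultures, at its brighter probe set. The other Rab31 probe set read 403.5 and 457.9 in the deficient cultures, against 743.8 and 654.2 in the wild-type cultures. Both sets of signals were separate, with log2 differences of -0.76 (SE 0.16, adjusted p = 0.00931) and -0.67 (SE 0.14, adjusted p = 0.0104). The brighter one did not pass without the variance trend (adjusted p = 0.0555).

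Rab5b, one of the Rab5 isoforms that drive fusion of early endosomes, read 72.7 and 84.8 in the deficient cultures, against 167.2 and 166.7 in the wild-type cultures. It fell by 0.90 on the log2 scale (SE 0.23, adjusted p = 0.0217), from signals not far above the filter. The call was lost without deficient replicate 1 (adjusted p = 0.116), without wild-type replicate 2 (0.0516) and without a filter (0.0754). The 2 other Rab5 isoforms did not pass. Rab5a had 1977.2 and 2042.3 in the deficient cultures, against 1734.7 and 1647 in the wild-type cultures (0.25, adjusted p = 0.123), and was higher on both deficient arrays. Rab5c had 444.4 and 511.3 in the deficient cultures, against 505.1 and 598.8 in the wild-type cultures, with overlapping groups (-0.20, adjusted p = 0.387).

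Rab20, known for phagosome maturation in macrophages, was the Rab gene with the largest rise. It read 252 and 289.4 in the deficient cultures, against 87.7 and 98.4 in the wild-type cultures, a mean 2.91 times the wild-type one. The arrays of each genotype lay close together and far from the other genotype (log2 difference 1.34, SE 0.21, adjusted p = 0.00264). By replicate number the rise was 1.31 (replicate 1) and 1.36 (replicate 2), and it passed under all 11 alternatives that tested it.

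The remaining genes of that route did not pass. Rab15, found on early and recycling endosomes, read 217.3 and 328.9 in the deficient cultures, against 197.7 and 181.4 in the wild-type cultures (0.45, adjusted p = 0.177), higher on both deficient arrays but unequal between them. Rab22a, an endosomal Rab related to Rab31, Rab4b and Rab11b, both of recycling endosomes, Rab11a, Rab14 and Rab21 had log2 differences between -0.38 and 0.04 at their brightest probe sets, and none passed. Several of these genes had probe sets of opposite sign, such as Rab11a with -0.20 and 0.35. The Rab17, Rab25 and Rab4a probe sets lay below the filter.

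**Figure D2:**
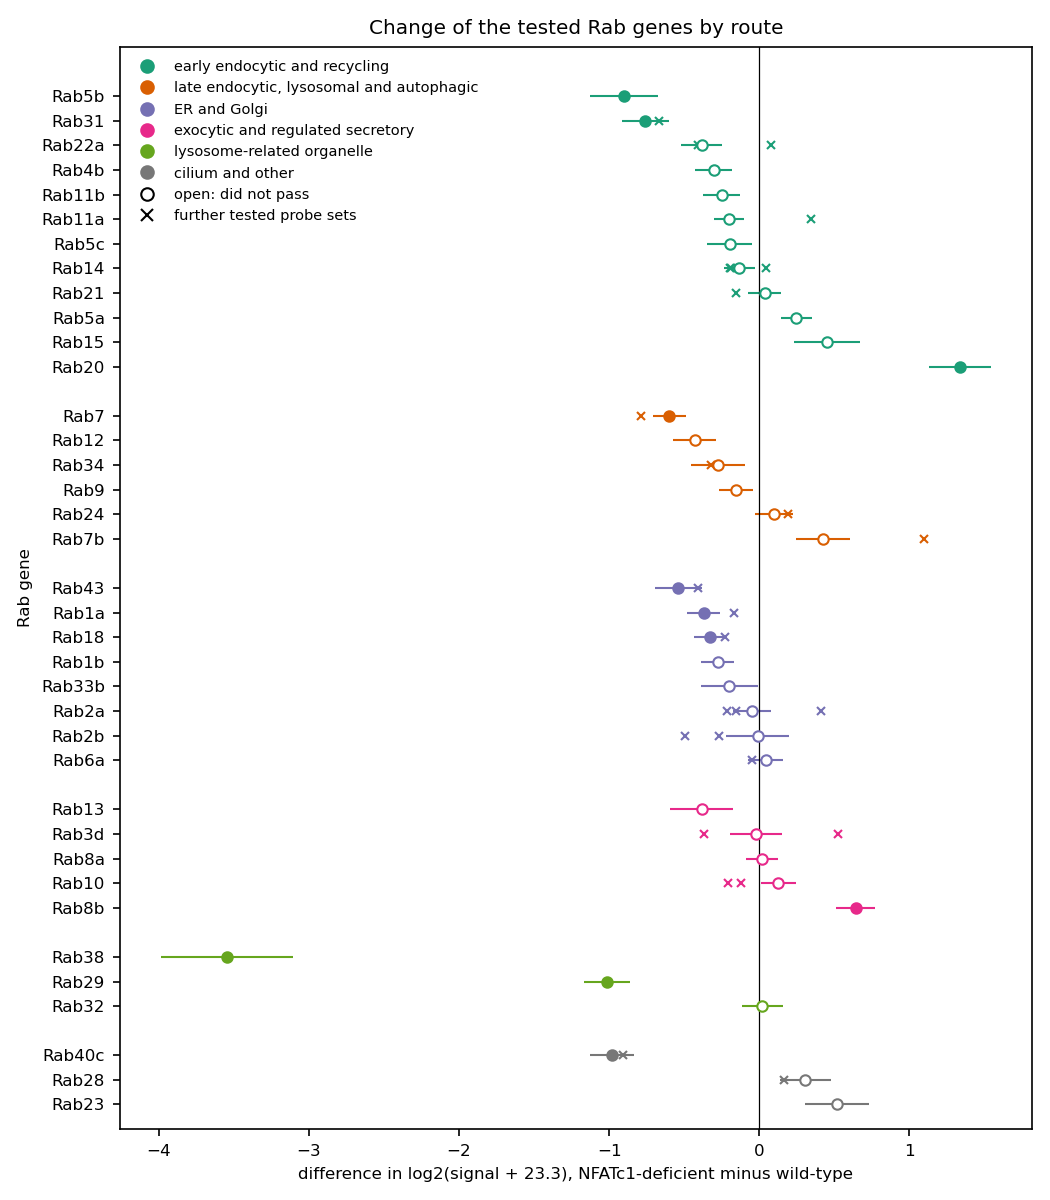
Difference in log2(signal + 23.3), NFATc1-deficient minus wild-type, for the 37 tested Rab genes at their brightest probe set, with bars for the standard error, filled circles for those that passed and crosses for further tested probe sets. Rab38 stands at -3.54, while the other 36 genes lie between -1.01 and 1.34.

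In the ER and Golgi route 3 of 8 tested genes fell by small amounts, none rose and 5 did not pass (median log2 difference -0.24, beside 0.03 for all tested genes). The share that fell was 37.5%, beside 11.9% of all tested genes. Rab43, a Golgi Rab, read 251.1 and 275.3 in the deficient cultures, against 391.8 and 393.6 in the wild-type cultures (-0.54, SE 0.16, adjusted p = 0.0361). Rab1a, which directs vesicles from the ER to the Golgi, read 6072.2 and 6311.5 in the deficient cultures, against 7463.6 and 8586.4 in the wild-type cultures (-0.37, SE 0.11, adjusted p = 0.0424). Rab18, of the ER and lipid droplets, read 2103.9 and 2266.7 in the deficient cultures, against 2782.2 and 2723.1 in the wild-type cultures (-0.33, SE 0.10, adjusted p = 0.0474). The groups of all 3 were separate, but these were the smallest changes among the Rab genes that passed, and the further probe sets of Rab43 (-0.41), Rab1a (-0.17) and Rab18 (-0.23) did not pass.

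Calls in this route were easily lost. Without deficient replicate 1 the adjusted p was 0.167 for Rab43, 0.293 for Rab1a and 0.261 for Rab18, and without deficient replicate 2 it was 0.0649, 0.179 and 0.0936. Without wild-type replicate 1 it was 0.0721 for Rab43 and 0.105 for Rab18, and without wild-type replicate 2 it was 0.0864 for Rab43, 0.0942 for Rab1a and 0.0839 for Rab18. None of the 3 passed without a filter (0.0676 for Rab43, 0.106 for Rab1a and 0.0775 for Rab18). Rab1a and Rab18 also missed without the variance trend (0.132 and 0.141) and with each array centred on its median (0.284 and 0.238). Rab1b, the close relative of Rab1a, read 1165.1 and 1198.1 in the deficient cultures, against 1491.4 and 1385 in the wild-type cultures, lower on both arrays without passing (-0.28, adjusted p = 0.101). Rab33b, Rab2a, Rab2b and Rab6a had log2 differences between -0.20 and 0.04 and did not pass. The 4 tested Rab2a probe sets ranged from -0.22 to 0.41.

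The exocytic and regulated secretory route had 1 gene that rose and none that fell among 5 tested (median log2 difference 0.02). The share that rose was 20%, beside 12.9% of all tested genes. Rab8b, which acts in transport from the trans-Golgi network to the plasma membrane, read 1745.4 and 1847.8 in the deficient cultures, against 1282.6 and 1018 in the wild-type cultures (0.64, SE 0.13, adjusted p = 0.00945). Both deficient arrays were above both wild-type arrays, and the rise missed the threshold only without the variance trend (adjusted p = 0.0540). Its relative Rab8a read 2194.8 and 2412 in the deficient cultures, against 2268.4 and 2276.1 in the wild-type cultures, and the groups overlapped (0.02, adjusted p = 0.929).

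Rab3d, a Rab of secretory vesicles that mouse osteoclasts need for normal resorption, read 311.7 and 267.1 in the deficient cultures, against 318.4 and 269.6 in the wild-type cultures at its brightest probe set. The groups overlapped (-0.02, adjusted p = 0.951), and its 3 tested probe sets ran from -0.37 to 0.53, and 0.53 was the largest absolute difference of any Rab probe set that did not pass. Rab13, of tight junctions and surface transport, had -0.38 (adjusted p = 0.222) and Rab10, of exocytosis and recycling, 0.13 (adjusted p = 0.481). The dimmer tested Rab10 probe sets had the opposite sign, -0.12 and -0.21, and did not pass. The Rab3a, Rab3b, Rab3c and Rab37 probe sets, for genes known from neurons, secretory cells and mast cells, lay below the filter.

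Among the Rabs outside these routes, Rab40c fell. It carries a SOCS box and joins cullin ubiquitin ligases. Its brighter probe set read 352.6 and 344.2 in the deficient cultures, against 648.7 and 775.1 in the wild-type cultures, and the dimmer one read 76.7 and 109.6 in the deficient cultures, against 218.4 and 170.5 in the wild-type cultures. Both probe sets gave separate groups and mean signals more than 2-fold lower, with log2 differences of -0.98 (SE 0.15, adjusted p = 0.00222) and -0.91 (SE 0.25, adjusted p = 0.0284). The dimmer one lost the call without deficient replicate 1 (adjusted p = 0.160), without wild-type replicate 1 (0.0858) and without a filter (0.0917). Rab23, a regulator of hedgehog signalling at the cilium, read 221.7 and 178.5 in the deficient cultures, against 139.2 and 125.2 in the wild-type cultures. It was higher on both deficient arrays without passing (0.52, SE 0.21, adjusted p = 0.112). Rab28, of the cilium and photoreceptors, had 0.31 (adjusted p = 0.222).

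The probe sets of 1 gene did not always give the same picture. Of 19 Rab genes with over 1 tested probe set, 12 had probe sets that differed in sign or in passing the test, while both probe sets passed and fell for Rab7, Rab31 and Rab40c. Rab38, Rab29, Rab20 and Rab5b each had only 1 member probe set, so their calls could not be compared with another. In the comparisons by replicate number, all 12 probe sets that fell were lower both times, and all 3 that rose were higher both times. None of these probe sets had overlapping groups, so the shared sign was fixed in advance and adds no support. Of the 12 that fell, 10 had their lower deficient signal in replicate 1, but so did Rab20 and Rab8b, which rose. The share over all tested probe sets was not counted. The median signal of the whole array was 114.05 in deficient replicate 1, against 125.1 in deficient replicate 2.

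**Figure D3:**
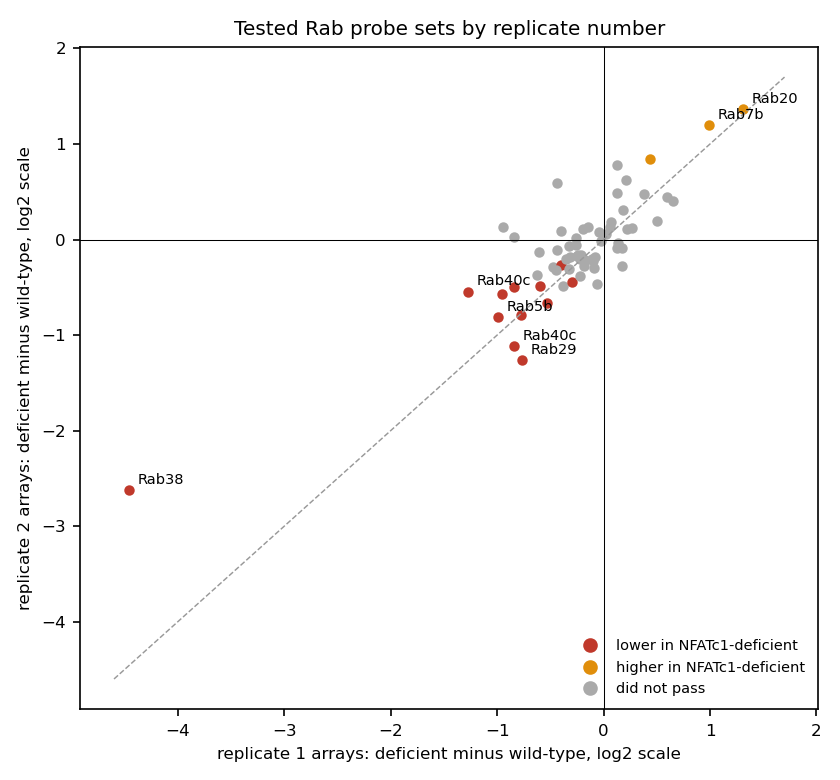
Difference in log2(signal + 23.3), deficient minus wild-type, for replicate 1 (horizontal) and for replicate 2 (vertical) of the 64 tested Rab probe sets, with red for those that fell, orange for those that rose and a dashed line of equality. Rab38 (-4.46 and -2.63) lies far from the rest, and Rab20 (1.31 and 1.36) lies near the line.

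The 31 Rab probe sets below the filter had signals from 0.9 to 84.8, and they were the only ones for 13 genes. These genes were Rab17, Rab25, Rab27a, Rab27b, Rab30, Rab33a, Rab37, Rab3a, Rab3b, Rab3c, Rab40b, Rab4a and Rab6b. Without MAS5 detection calls, whether such signals stand above background is unknown.

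Proteins that control and serve the Rabs also changed in part. Their shares are to be read beside 11.9% lower and 12.9% higher among all tested genes. Of 6 tested factors that prenylate, chaperone or recycle Rabs, 1 fell (16.7%, median log2 difference -0.07). It was Rabac1, a prenylated Rab acceptor of the Golgi, with 886.3 and 938.4 in the deficient cultures, against 1365 and 1319.2 in the wild-type cultures (-0.55, SE 0.11, adjusted p = 0.00891). The geranylgeranyl transferase subunits Rabggta (-0.44, adjusted p = 0.181) and Rabggtb (0.03, adjusted p = 0.859) and the GTPase chaperone Rabif (-0.16, adjusted p = 0.435) did not pass, although Rabggta did without deficient replicate 2 (adjusted p = 0.0400).

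Of 14 tested exchange factors none fell and 2 rose at the brightest probe set (median 0.03). The share that rose was 14.3%, near the 12.9% of all tested genes. A dimmer probe set of Rabgef1 fell (-0.61, adjusted p = 0.0486), while its brightest did not pass (-0.04, adjusted p = 0.825). Rin2, an exchange factor of Rab5, read 634.4 and 686.5 in the deficient cultures, against 378.9 and 327.1 in the wild-type cultures, a clear separation (0.86, SE 0.14, adjusted p = 0.00377). Dennd4c, an exchange factor of Rab10, read 588.7 and 584.6 in the deficient cultures, against 449.2 and 378.9 in the wild-type cultures (0.48, adjusted p = 0.0398), and it lost the call without deficient replicate 1 (0.136), deficient replicate 2 (0.100) or wild-type replicate 2 (0.179), without a filter (0.0698) and without the variance trend (0.0778). Its relative Dennd4b (0.44, adjusted p = 0.148) did not pass. Hps1, a subunit of the BLOC-3 complex that activates Rab32 and Rab38, also did not pass (-0.33, adjusted p = 0.366).

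Of 17 tested GTPase-activating proteins 4 fell and 2 rose (median -0.29). These shares were 23.5% and 11.8%, beside 11.9% and 12.9% of all tested genes. Sgsm3 read 24.2 and 33.8 in the deficient cultures, against 141.1 and 131.6 in the wild-type cultures (-1.62, adjusted p = 0.00447). Tbc1d24, whose TBC domain is found in Rab GTPase-activating proteins, read 49.9 and 95.4 in the deficient cultures, against 222.4 and 284.4 in the wild-type cultures (-1.56, adjusted p = 0.00522). Rabgap1l read 56.4 and 78.8 in the deficient cultures, against 196.4 and 160.8 in the wild-type cultures (-1.16, adjusted p = 0.0115, and 0.0647 without deficient replicate 1). Sgsm3 lay under the filter on both deficient arrays and entered the test only through the wild-type ones, so it had to differ and its call supports nothing. Tbc1d24 and Rabgap1l each had 1 deficient signal under the filter, so the size of their falls is uncertain. Tbc1d23, which tethers endosomal vesicles at the Golgi, read 684 and 784.8 in the deficient cultures, against 1076.1 and 1346 in the wild-type cultures, and fell at both of its probe sets (-0.70, adjusted p = 0.00924, at the brighter one).

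Of 21 tested effectors 5 fell and 1 rose (median -0.05). These shares were 23.8% and 4.76%, beside 11.9% and 12.9% of all tested genes. The largest falls were in a related pair, Rilpl1 and Rilpl2, homologues of the Rab7 effector RILP that bind Rabs phosphorylated by LRRK2. Rilpl2 read 1277.9 and 1401.7 in the deficient cultures, against 3485.3 and 3268.2 in the wild-type cultures (-1.32, SE 0.11, adjusted p = 0.000209). Rilpl1 read 83.7 and 113.2 in the deficient cultures, against 345 and 399.6 in the wild-type cultures (-1.71, SE 0.21, adjusted p = 0.000983), while its dimmer probe set did not pass (-0.43, adjusted p = 0.381). Both genes passed under all 12 alternatives at the probe sets named. Rabep1, which encodes the Rab5 effector rabaptin-5, fell at all 4 of its tested probe sets, and the brightest read 202.1 and 269.3 in the deficient cultures, against 446.8 and 430.5 in the wild-type cultures (-0.85, adjusted p = 0.0103, and 0.0544 without deficient replicate 1). Ehbp1, which links endosomal Rabs to actin, had a difference of 0.77 that did not pass (adjusted p = 0.147, against 0.00804 without wild-type replicate 2 and 0.0382 with each array centred on its median).

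HOPS and CORVET are the complexes that tether Rab7 and Rab5 membranes. Of 6 genes tested in their list (Vps11, Vps16, Vps18, Vps33b, Vps39 and Vps41), 1 fell (median -0.22). The share that fell was 16.7%, beside 11.9% of all tested genes. Vps39, a HOPS subunit that binds Rab7, read 151.6 and 251.1 in the deficient cultures, against 567.4 and 607.5 in the wild-type cultures (-1.48, SE 0.22, adjusted p = 0.00216). Its groups were far apart, and its dimmer probe set also fell (-1.13, adjusted p = 0.0133). The shared subunits Vps11 (-0.44, adjusted p = 0.138) and Vps18 (-0.43, adjusted p = 0.137) did not pass, although each passed without 1 wild-type array (0.0288 for Vps11 without replicate 2, 0.0333 for Vps18 without replicate 1). Vps41, the other subunit particular to HOPS, had 0.18 (adjusted p = 0.291).

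**Figure D4:**
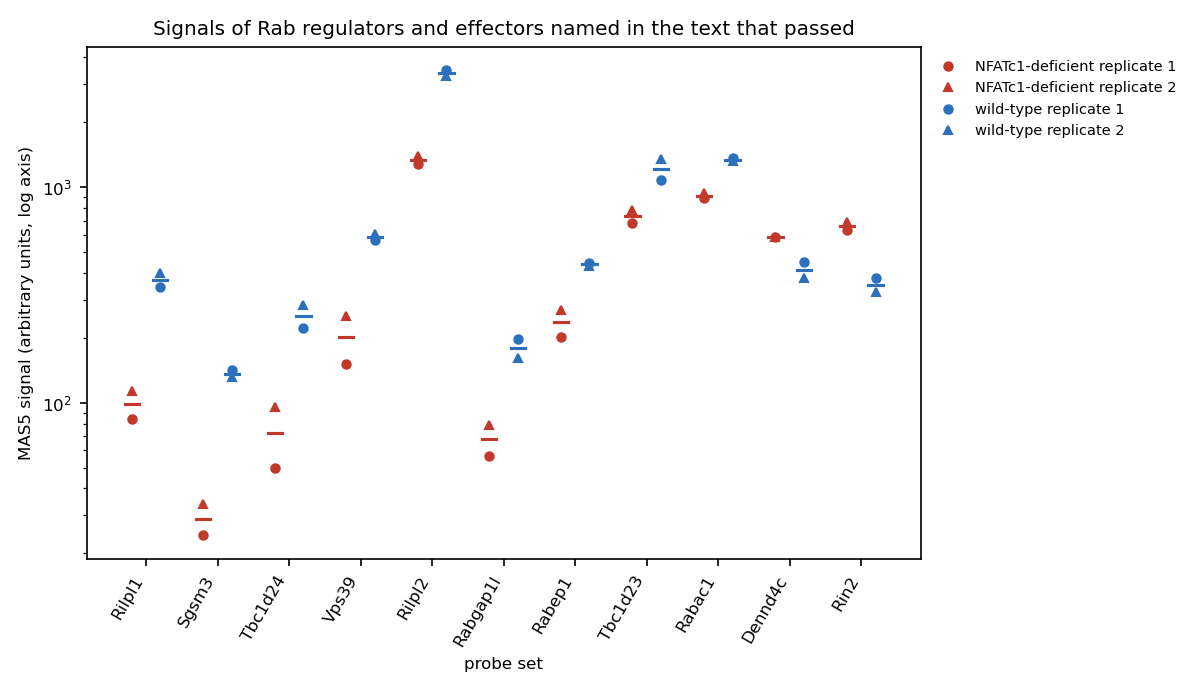
MAS5 signal (log axis) of the 11 Rab regulators, effectors and tethers named in the text that passed, on the NFATc1-deficient (red, left) and wild-type (blue, right) arrays, with circles for replicate 1, triangles for replicate 2 and bars for the mean of 2. Each gene is shown at its brightest tested probe set. Rin2 and Dennd4c are higher on both deficient arrays, and the other 9 genes are lower on both. Sgsm3 entered the test only through the wild-type arrays, so its difference was fixed in advance.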

How the data were processed

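Signals of 4 arrays were deposited by the authors as probe set intensity on a linear scale, made with MAS5 per the submitters' processing notes. The trimmed mean of each array lay between 500.186 and 500.211. Gene symbols came from the annotation table of the platform: 20393 of 22690 had 1 symbol, and all 95 Rab probe sets matched the RefSeq names of GRCm38 by Entrez number. The value 23.3, the 25th percentile of all signals, was added before log2, which understates the change of dim genes. After 64 control probe sets were left out, the 13577 whose mean signal exceeded the 40th percentile (62) were fitted with limma 3.58.1 in R 4.3.3 (lmFit and eBayes with a trend, two-sided, Benjamini-Hochberg over all of them, threshold 0.05), and every adjusted p comes from that fit unless another setting is named beside it. A gene was read at its brightest tested probe set. Fold values are ratios of mean signals. The fit was tested on simulated data under 3 models of the spread between arrays. Under the one that gave each probe set its own moderated spread, unchanged probe sets made up a larger share of the calls than the threshold allows, so calls close to the threshold are less certain than their adjusted p says. Named were Nfatc1, the osteoclast markers, each Rab probe set that passed, the lysosome-related list, and the 4 tested genes with the largest absolute change in each other list. Rabgef1 was named for a dimmer probe set that passed. The members and lists were chosen with earlier results of these data known. The 12 alternatives changed 1 choice each. Suffixes x or s, carried by 2 and 5 Rab probe sets, mark designs that can match related transcripts.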

Additional observations from a re-analysis of the deposited data

How the results depend on the processing

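Of the 15 Rab probe sets that passed, 6 kept the call under every alternative that tested them (Rab38, Rab29, Rab20, and 1 each of Rab7, Rab31 and Rab40c), and none turned. The count that fell, 12, became 7 without a filter, and 6 to 9 with single arrays left out. The count that rose, 3, became 1 with the filter at the 60th percentile, where 11 of the 15 were tested, and 2 to 4 with single arrays left out. Over all probe sets the count that rose, 1740, became 1157 without a filter and 990 without the variance trend, and with single arrays left out it was 854 to 1945 and the count that fell (1552) 940 to 1546. The lowest counts over all probe sets came without deficient replicate 1. With the replicate number as a replicate block, 12 Rab probe sets fell and 3 rose, and 1799 and 2048 of all did. Deviations of same-numbered arrays correlated at 0.13, and per the labels a shared number means a shared pool size (3 or 4 mice), with no shared animals, day or batch stated. Centring each array on its median cost the calls of Rab18 (adjusted p = 0.238) and Rab1a (0.284), quantile scaling none of the 15. In that centred fit the prior of limma carried 52.1 degrees of freedom, against 6.6 in the fit reported, so its adjusted p-values are not comparable in size. The prior also differed with single arrays left out (10.8 to 20.3) and with the replicate block (11.9). It was 3.44 without the variance trend and 4.51 without a filter. Adjusted p-values from those fits are likewise not directly comparable in size with those of the fit reported. Signs turned, with no call, for Rab32 (-0.0037 with quantile scaling, and -0.15 to 0.19 with single arrays left out), Rab3d (-0.13 to 0.0907) and Rabggtb (-0.0528 to 0.12), both with single arrays left out. With 1 array left in a group, that array is assumed to vary like the other group. The cause was not tested for any of these changes. A signal near 23.3 limits the size of any fall.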
